A study of Mus musculus with 10 samples.

Results

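Genes of the insulin and insulin-like growth factor (IGF) system were followed in mouse liver, 10 in all and chosen by name: the receptors Insr and Igf1r, the substrates Irs1 and Irs2, the kinase Akt2, the transcription factor Foxo1 and the binding proteins Igfbp1, Igfbp2, Igfbp3 and Igfbp4. All 10 of the 10 names were found once each among the 56748 genes of the count table, and all 10 passed the filter on low counts, as did 14068 genes in all. The libraries were 5 livers with genotype ACSS2-HKO (HKO), a liver-cell knockout of Acss2, and 5 livers with genotype ACSS2-flox (flox), named for the floxed allele without deletion. Mice of both groups had a diet high in fat and fructose (HFFD) for 4 months, so no group without this diet is compared here. The design text says that the study addressed the role of ACSS2, which makes acetyl-CoA from acetate, in steatohepatitis. The labels give no Cre driver, sex, age, strain, batch or time since feeding, and do not say that each library came from a separate animal, so the p-values measure the spread between these libraries, which may be technical.

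Insulin binds a receptor tyrosine kinase on hepatocytes, which phosphorylates the insulin receptor substrates and through them activates PI3-kinase and AKT. AKT keeps the factor FOXO1 out of the nucleus. In the fasted liver, FOXO1 is nuclear and raises genes of glucose production together with Irs2 and Igfbp1. The liver is also the main source of circulating IGF1, which travels bound to the IGF-binding proteins, and mature hepatocytes carry few IGF1 receptors.

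Total counts ran from 15413648 to 19275358 in HKO and from 16933436 to 17196774 in flox libraries. Levels are CPM (counts scaled to a library of 1000000) after TMM scaling, and CPM per kilobase where genes are compared with each other. Acss2, the targeted gene, was read in every library, at 40.2 to 59.0 CPM in HKO and 56.5 to 128.8 CPM in flox. Its HKO level was 61.2% of flox and did not pass the edgeR test (adjusted p = 0.0858), but passed in 4 of 17 alternatives. The genotype labels are therefore checked only weakly. Among markers of liver cell types, 10 of 10 hepatocyte markers were tested and 0 called. Of 14 macrophage markers 14 were called lower in HKO, with a summed level of 126.2 to 263.7 CPM in HKO and 340.0 to 835.6 CPM in flox. Called lower was 1 gene each of 10 sinusoidal endothelial markers, 11 stellate cell markers and 5 T, NK and B cell markers, and 0 of 5 cholangiocyte markers were called. Of all genes tested, 3.07% were called lower and 0.917% higher. Of 6 pancreas markers, 5 had no count in any library, Ins1 and Ins2 among them.

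Of the 10 genes, 1 rose in HKO livers, Igfbp2, 0 fell, and 9 did not pass the test (edgeR quasi-likelihood test, adjusted p under 0.05 over all genes). Over all genes tested, 3.99% were called, 0.917% higher and 3.07% lower in HKO. Igfbp2 was 2.44-fold higher, while Foxo1 was at 0.734 of its flox level without passing. The receptors, Akt2, Igfbp3 and Igfbp4 had log2 fold changes between -0.20 and 0.15, and the values of Irs2 and Igfbp1 turned on a single flox library. The median log2 fold change was -0.03 over the 10 genes and 0.01 over all genes tested, and 4 of the 10 were above 0 and 6 below. In bulk liver, fewer cells of a type and less RNA per cell cannot be told apart.

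**Figure D1:**
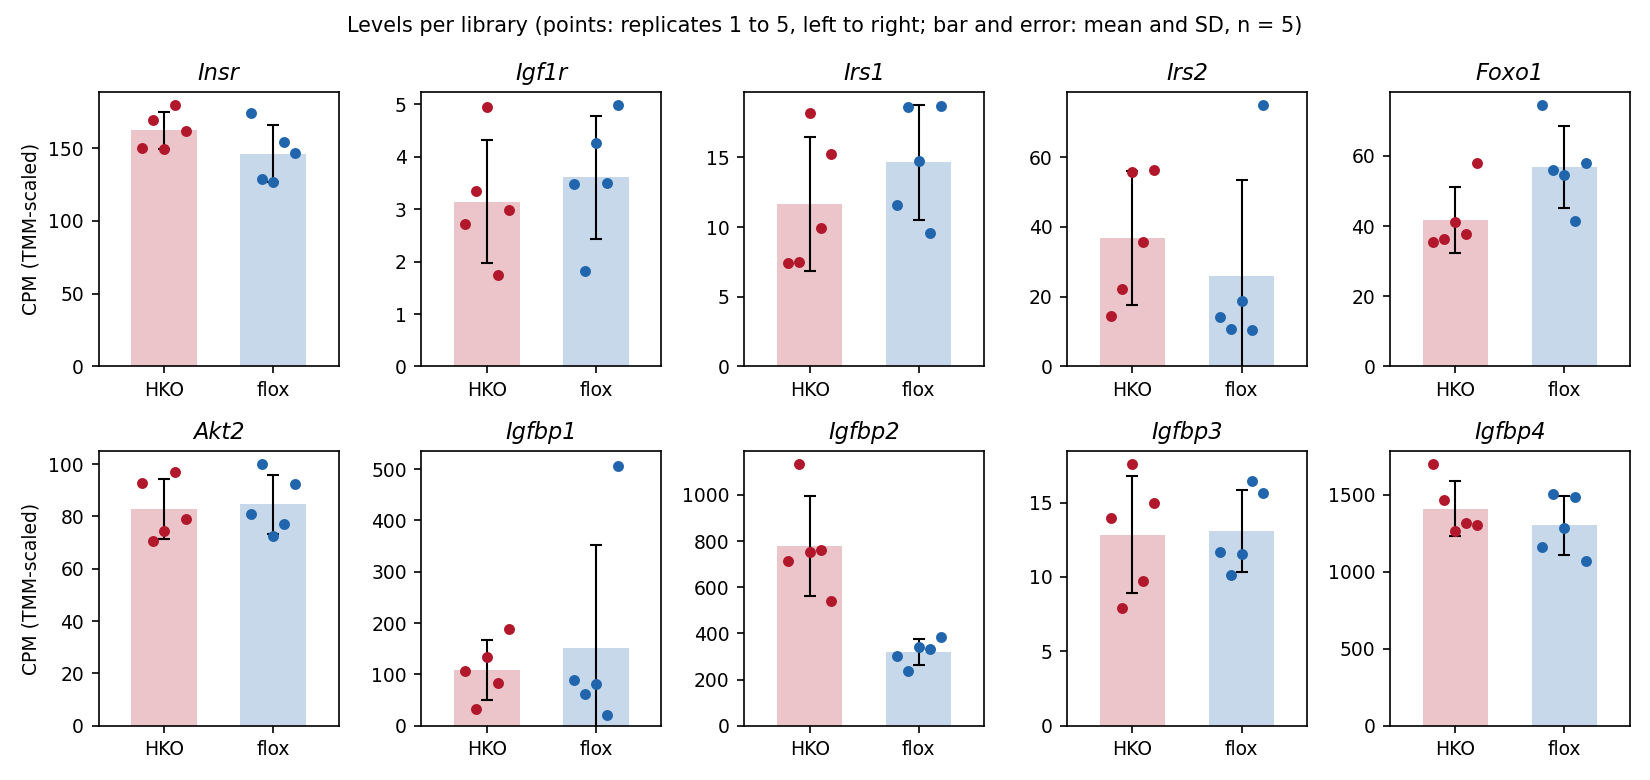
TMM-scaled CPM (y axis, from 0) of each of the 10 genes in every library, with HKO left and flox right in each panel; points are replicates 1 to 5, bars and error bars are the mean and SD (n = 5), and the error bars of Irs2 and Igfbp1 in flox are cut off at 0. The Igfbp2 points of HKO (538.2 to 1133 CPM) lie above all flox points (235.1 to 386.2 CPM), and a single flox point stands high for Irs2 and for Igfbp1.

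Per kilobase, the genes spanned a wide range of levels, and the order at the top differed between the groups. In HKO livers, Igfbp2 averaged 422.4 ± 117.4 CPM per kilobase and Igfbp4 319.2 ± 40.5 (SD, n = 5), with ranges that overlapped. In flox livers, Igfbp2 averaged 172.8 ± 30.3 and Igfbp4 294.8 ± 43.8 CPM per kilobase, and here all 5 Igfbp4 values (242.2 to 340.9) were above all 5 Igfbp2 values (127.3 to 209.1). Igfbp1 came next, with a median of 70.4 CPM per kilobase in HKO and 53.5 in flox. Akt2 and Insr followed side by side, with Akt2 at 11.6 ± 1.61 in HKO and 11.9 ± 1.59 CPM per kilobase in flox, and Insr at 11.8 ± 0.929 and 10.6 ± 1.42. They did not differ from each other beyond their spread. Foxo1, Igfbp3 and Irs2 had means between 4.09 and 6.56 CPM per kilobase in both groups, with overlapping ranges. Irs1 averaged 1.27 ± 0.528 in HKO and 1.60 ± 0.449 in flox, and Igf1r was last at 0.187 ± 0.0699 and 0.215 ± 0.0700 CPM per kilobase.

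Insr (ENSMUSG00000005534), the insulin receptor, spans bases 3172061 to 3329617 of chromosome 8 (minus strand) in the count table, whose genome build could not be settled. Its level was 150.2, 169.2, 149.7, 179.6 and 162.0 CPM in HKO replicates 1 to 5, and 174.2, 128.9, 126.6, 154.0 and 146.6 CPM in flox replicates 1 to 5. The groups overlapped, with HKO replicate 4 the highest library and flox replicate 3 the lowest. Its log2 fold change was 0.15 ± 0.13 (SE; edgeR adjusted p = 0.620), and its 95% confidence interval, -0.13 to 0.43, allows a fold of 0.915 to 1.35.

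Igf1r (ENSMUSG00000005533), the IGF1 receptor, was near the low end of what was measured, with 27 to 99 counts per library. Its level was 2.72, 3.34, 4.96, 1.74 and 2.98 CPM in HKO replicates 1 to 5, and 3.49, 1.83, 4.26, 3.50 and 4.99 CPM in flox replicates 1 to 5. The groups overlapped through most of their range. HKO over flox, the log2 fold change was -0.20 ± 0.31 (edgeR adjusted p = 0.809), with an interval from -0.87 to 0.46, which allows a fold of 0.548 to 1.38. Its coefficient of variation between libraries was 37.3% in HKO and 32.5% in flox. Per kilobase the insulin receptor transcript exceeded that of the IGF1 receptor 36.9-fold to 126.4-fold in HKO libraries and 35.9-fold to 86.2-fold in flox libraries.

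The substrates hand the receptor signal to PI3-kinase. Irs1 (ENSMUSG00000055980) was at 7.45, 7.50, 18.2, 9.90 and 15.2 CPM in HKO replicates 1 to 5, and at 11.6, 18.6, 14.7, 9.57 and 18.7 CPM in flox replicates 1 to 5. The lowest values were in HKO replicates 1 and 2, and the groups overlapped. The log2 fold change was -0.33 ± 0.27 (edgeR adjusted p = 0.603).

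Irs2 (ENSMUSG00000038894), the substrate that is raised by fasting in liver, was at 14.4, 22.1, 55.6, 35.7 and 56.5 CPM in HKO replicates 1 to 5, and at 14.2, 10.8, 18.7, 10.5 and 74.9 CPM in flox replicates 1 to 5. In all, 4 of the 5 HKO libraries were above flox replicates 1 to 4, while flox replicate 5 was the highest of all 10 libraries, 4.00 times the next flox library. With all libraries, the log2 fold change was 0.51 ± 0.53 (edgeR adjusted p = 0.696). Without flox replicate 5 it was 1.45 ± 0.37, and still did not pass over all genes (unadjusted p = 0.00172, edgeR adjusted p = 0.0586). The ratio of Irs2 to Irs1 per kilobase was 2.79, 4.27, 4.43, 5.21 and 5.37 in HKO replicates 1 to 5, and 1.78, 0.841, 1.84, 1.59 and 5.80 in flox replicates 1 to 5. Irs2 was thus the more abundant substrate per kilobase in 5 of 5 HKO and 4 of 5 flox libraries, and flox replicate 2 was the exception.

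Akt2 (ENSMUSG00000004056), the main AKT kinase of hepatocytes, was at 92.6, 70.5, 74.6, 97.0 and 79.0 CPM in HKO replicates 1 to 5, and at 81.0, 99.9, 72.4, 77.1 and 92.5 CPM in flox replicates 1 to 5. The groups covered nearly the same range. Its log2 fold change was -0.03 ± 0.14 (edgeR adjusted p = 0.945), with a 95% confidence interval of -0.33 to 0.27.

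Foxo1 (ENSMUSG00000044167) had the smallest p of the 10 genes after Igfbp2. Its level was 35.4, 36.2, 41.2, 37.7 and 57.9 CPM in HKO replicates 1 to 5, and 74.5, 56.0, 54.4, 41.4 and 57.8 CPM in flox replicates 1 to 5. In all, 4 HKO libraries lay below all 5 flox libraries, and HKO replicate 5 lay among the higher flox values. HKO over flox, the log2 fold change was -0.45 ± 0.18 (95% confidence interval -0.83 to -0.06), which did not pass the test over all genes (unadjusted p = 0.0250, edgeR adjusted p = 0.207). An unadjusted p under 0.05 was reached by 2 of the 10 genes and by 16.9% of all genes tested. For Foxo1, permuting the libraries exactly gave a two-sided p of 0.0556 on log2 CPM (n = 5 and 5). Without HKO replicate 5 the log2 fold change was -0.59 (edgeR adjusted p = 0.0825).

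**Figure D2:**
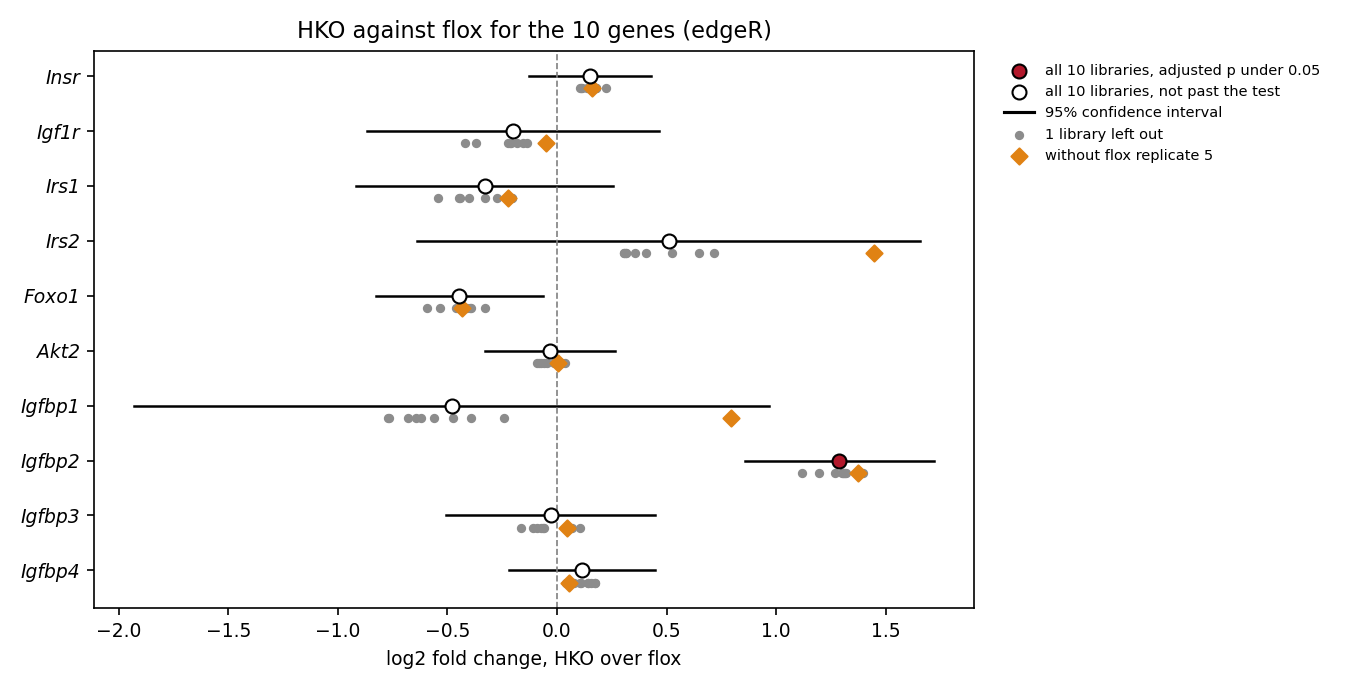
Log2 fold change, HKO over flox (x axis), of the 10 genes (rows) with the 95% confidence interval of the edgeR fit; grey points are the 10 fits with 1 library left out, and orange diamonds the fit without flox replicate 5. Igfbp2 (filled) lies at 1.29 in the full fit and between 1.12 and 1.40 with 1 library left out, while the diamonds of Irs2 (1.45) and Igfbp1 (0.79) stand far from their other points.

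Igfbp1 (ENSMUSG00000020429), an acutely regulated IGF-binding protein that insulin represses in liver, spans bases 7147782 to 7152546 of chromosome 11 (plus strand) in the table. It was the most variable of the 10 genes. Its level was 107.3, 31.6, 133.8, 82.8 and 188.8 CPM in HKO replicates 1 to 5, and 89.6, 61.1, 81.6, 19.9 and 506.9 CPM in flox replicates 1 to 5. Flox replicate 5 was 5.66 times the next flox library, and the coefficient of variation was 53.7% in HKO and 132.0% in flox. The log2 fold change was -0.48 ± 0.67 with all libraries (edgeR adjusted p = 0.787) and 0.79 ± 0.46 without flox replicate 5 (edgeR adjusted p = 0.507), so its direction rested on that library.

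The same library was thus the highest of all 10 for Igfbp1 and for Irs2. Their promoters are shown because both are known targets of FOXO1 through an insulin response sequence. The sequences are those of RefSeq on GRCm38.p6, from 250 bases before to 50 bases after an annotated start, on the gene's own strand. Capitals mark the letters CAAAACA, the core of that sequence, or TGTTTTG, its complement read on the other strand. Irs1, which holds the letters as well, is given beside them. The windows are chr11:7197537-7197836 (plus strand) for Igfbp1, chr8:11008880-11009179 (minus strand) for Irs2 and chr1:82291390-82291689 (minus strand) for Irs1.
Igfbp1: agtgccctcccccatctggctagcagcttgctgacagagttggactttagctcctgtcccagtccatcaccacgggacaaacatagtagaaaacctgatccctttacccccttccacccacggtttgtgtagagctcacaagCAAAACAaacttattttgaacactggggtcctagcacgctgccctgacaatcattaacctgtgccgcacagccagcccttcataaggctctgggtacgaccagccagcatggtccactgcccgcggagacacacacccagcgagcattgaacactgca
Irs2: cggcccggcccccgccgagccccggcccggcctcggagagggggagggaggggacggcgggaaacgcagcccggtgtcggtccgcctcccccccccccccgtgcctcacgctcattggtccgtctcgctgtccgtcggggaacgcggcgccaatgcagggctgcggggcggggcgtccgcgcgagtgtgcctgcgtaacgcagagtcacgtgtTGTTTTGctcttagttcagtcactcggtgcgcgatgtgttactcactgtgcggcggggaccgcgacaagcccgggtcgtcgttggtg
Irs1: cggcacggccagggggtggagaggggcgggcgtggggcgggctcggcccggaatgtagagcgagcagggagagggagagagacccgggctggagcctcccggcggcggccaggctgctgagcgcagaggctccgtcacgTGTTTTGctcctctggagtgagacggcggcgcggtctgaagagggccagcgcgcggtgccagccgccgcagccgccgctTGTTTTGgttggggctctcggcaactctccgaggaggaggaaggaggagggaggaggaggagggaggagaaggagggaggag

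The match began 108 bases before the start in Igfbp1 and 37 bases before it in Irs2, and Irs1 had matches at 111 and 32 bases before its start. A window with CAAAACA on either strand was found for 3 of the 9 genes of the set with a RefSeq promoter. Over all genes with such windows it was found for 1946 of 27025, and 6.28% of all 32851 windows of 300 bases held it. The exact letters GTAAACA, a forkhead consensus, were searched on both strands. They were in 3.65% of all windows and in 0 of the 13 windows of these 9 genes, so the motifs did not overlap. Variants of either motif were not searched, so forkhead-like letters may still be present. Insr had no entry in the table. A match is a description of letters and not a bound site. For Irs1, flox replicate 5 (18.7 CPM) was close to flox replicate 2 (18.6 CPM).

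Other genes listed as raised by FOXO1 in the fasted liver were read beside Igfbp1 and Irs2. Of 14 listed genes tested, 0 passed in either direction, with a median log2 fold change of -0.03. Angptl8 was among the 14 (log2 change -0.57), although feeding and insulin raise it in liver. Pdk4, the kinase that shuts off pyruvate oxidation in fasting, and G6pc, the catalytic subunit of glucose-6-phosphatase, were also highest in flox replicate 5. They were chosen after their values were seen. Pdk4 was at 5.19, 4.47, 24.6, 29.2 and 54.1 CPM in HKO replicates 1 to 5, and at 9.97, 12.7, 6.72, 4.58 and 289.3 CPM in flox replicates 1 to 5. G6pc was at 197.2 to 449.4 CPM in HKO, at 228.8 to 293.3 CPM in flox replicates 1 to 4 and at 642.8 CPM in flox replicate 5. Pck1, which makes phosphoenolpyruvate for gluconeogenesis, did not share this pattern, with 2744 to 4524 CPM in HKO, 1810 to 3166 CPM in flox replicates 1 to 4 and 2954 CPM in flox replicate 5. In all, 2 of the 14 genes were highest in flox replicate 5 and 2 were lowest there. Of 15 genes that insulin raises in liver, 6 were highest in the same library and 0 lowest, among them the lipogenic genes Fasn (319.5 CPM) and Acaca (88.0 CPM). This library was also the highest for 10 of 14 macrophage and 7 of 11 stellate cell markers. The share over all genes tested was not counted, so no pattern of fasting or insulin is read from these counts. By the smallest p, Angptl4, an inhibitor of lipoprotein lipase, had a log2 change of 0.61 ± 0.21 (edgeR adjusted p = 0.136), and the stress-induced sestrin gene Sesn3 one of -0.49 ± 0.18 (edgeR adjusted p = 0.175).

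**Figure D3:**
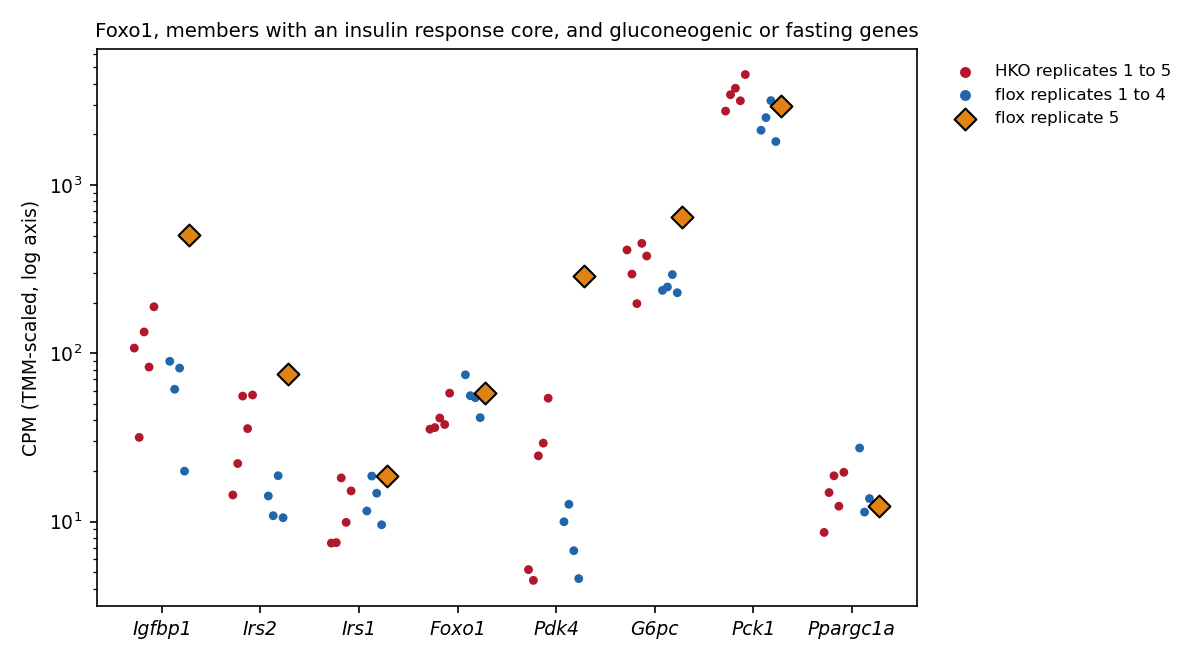
TMM-scaled CPM on a log axis of Igfbp1, Irs2, Irs1, Foxo1 and 4 genes of fasting or gluconeogenesis (x axis) in each library, HKO left and flox right, with flox replicate 5 as an orange diamond. The diamond is the highest point for Igfbp1 (506.9 CPM), Irs2 (74.9), Irs1 (18.7), Pdk4 (289.3) and G6pc (642.8), and lies within the range of the other libraries for Foxo1, Pck1 and Ppargc1a.

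Flox replicate 5 also stood apart in cell type markers. Its summed hepatocyte markers were the lowest, 88607 CPM, against 114215 to 145718 CPM in HKO and 112374 to 141666 CPM in the other flox libraries. Its summed macrophage markers (835.6 CPM, against 126.2 to 263.7 in HKO and 340.0 to 784.0 in the other flox libraries) and stellate cell markers (389.4 CPM, against 152.1 to 242.4 in HKO and 191.8 to 210.0 in the other flox libraries) were the highest. Cholangiocyte markers summed to 162.8 CPM there, against 38.8 to 79.0 CPM in HKO and 37.6 to 61.8 CPM in the other flox libraries. Single genes made up most of 2 sums in flox replicate 5, Spp1 (145.5 CPM) for cholangiocytes and Alb (53172 CPM) for hepatocytes. Of the tested markers, 4 of 5 for cholangiocytes were highest in this library, and 6 of 10 for hepatocytes were lowest. The part of these markers in the levels of Irs2 and Igfbp1 was not tested.

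Igfbp2 (ENSMUSG00000039323) was the gene of the set that passed the test. It encodes a binding protein that is abundant in fetal liver and that leptin raises in mouse liver, and it spans bases 72863662 to 72891633 of chromosome 1 (plus strand) in the table. Its level was 715.6, 1133, 751.5, 763.2 and 538.2 CPM in HKO replicates 1 to 5, and 300.8, 235.1, 340.8, 332.9 and 386.2 CPM in flox replicates 1 to 5. All 5 HKO libraries lay above all 5 flox libraries, which held for 1.91% of all genes tested, while 3.46% had all HKO libraries below all flox libraries and 5.37% did either. The mean was 780.3 ± 216.8 CPM in HKO and 319.2 ± 56.0 CPM in flox (SD, n = 5). Its log2 fold change was 1.29 ± 0.20 (edgeR adjusted p = 0.00618), or 2.44-fold with a 95% confidence interval of 1.81 to 3.29, and the gene ranked 39 of 14068 by p. The exact two-sided permutation test gave p = 0.00794, the smallest that 252 assignments allow (n = 5 and 5). Behind the values stood 62028 counts in HKO and 28496 in flox. Within flox the highest level was in replicate 5, the library that stood apart for Igfbp1, and without it the log2 fold change was 1.37. HKO replicate 2, highest for Igfbp2, was the lowest HKO library for Igfbp1 (31.6 CPM). The exact letters of neither motif named above were found in the 2 RefSeq windows of Igfbp2.

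Igfbp3 (ENSMUSG00000020427) encodes the main IGF carrier of plasma and is made in rat liver by non-parenchymal cells. It lies tail to tail with Igfbp1, at a distance of 3539 bases. Its level was 14.0, 7.94, 17.6, 9.70 and 15.0 CPM in HKO replicates 1 to 5, and 11.7, 10.1, 11.6, 16.4 and 15.7 CPM in flox replicates 1 to 5. The groups overlapped, and the highest value was in HKO replicate 3, not in the library where Igfbp1 was highest. HKO over flox, the log2 fold change was -0.03 ± 0.22 (edgeR adjusted p = 0.969), with an interval of -0.51 to 0.45.

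Igfbp4 (ENSMUSG00000017493), which mostly inhibits IGF action, was the most abundant of the 10 in CPM and ranked 94 of all genes tested by mean CPM. Its level was 1699, 1465, 1265, 1317 and 1302 CPM in HKO replicates 1 to 5, and 1160, 1505, 1288, 1486 and 1069 CPM in flox replicates 1 to 5. The groups overlapped, and the highest library was HKO replicate 1. The log2 fold change was 0.11 ± 0.16 (edgeR adjusted p = 0.777), with an interval of -0.22 to 0.45.

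The make-up of the binding protein transcripts followed from these levels. Per kilobase, Igfbp2 made up 45.7, 63.3, 51.7, 53.7 and 40.8% of the sum of Igfbp1 to Igfbp4 in HKO replicates 1 to 5, and 33.4, 24.9, 34.6, 33.7 and 26.5% in flox replicates 1 to 5. The shares did not overlap. Igfbp4 made up 34.3 to 45.4% in HKO and 30.7 to 66.7% in flox, and Igfbp1 2.14 to 17.3% in HKO and 2.44 to 42.1% in flox. Igfbp3 stayed under 1% in each library. The ratio of Igfbp4 to Igfbp2 was 0.541 to 1.01 in HKO and 1.16 to 2.68 in flox, so that Igfbp2 was the more abundant transcript per kilobase in 4 of 5 HKO and 0 of 5 flox libraries. The sum of the 4 genes was 714.9 to 968.2 CPM per kilobase in HKO, 487.9 to 535.1 in flox replicates 1 to 4 and 788.6 in flox replicate 5.

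**Figure D4:**
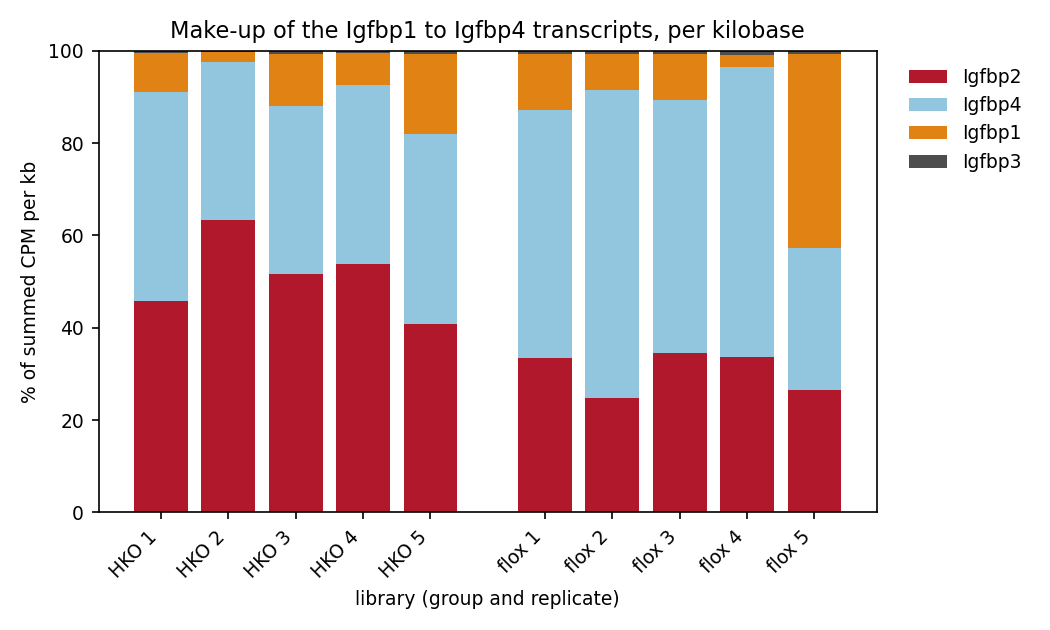
Share (y axis, %) of Igfbp2, Igfbp4, Igfbp1 and Igfbp3 in their summed CPM per kilobase, 1 stacked bar per library, with HKO left and flox right. Igfbp2 makes up 40.8 to 63.3% in HKO and 24.9 to 34.6% in flox, and Igfbp1 makes up 42.1% in flox replicate 5.

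Of the IGF ligands, carriers and proteases outside the set, 16 were listed and 10 tested, of which 1 rose and 0 fell. Over all genes tested, 0.917% were called higher and 3.07% lower. The gene that rose was Igf1 (ENSMUSG00000020053), the ligand itself. Its level was 852.4, 769.9, 779.7, 928.0 and 694.6 CPM in HKO replicates 1 to 5, and 501.9, 489.9, 549.4, 564.9 and 351.2 CPM in flox replicates 1 to 5. All HKO libraries lay above all flox libraries, as for 1.91% of all genes tested. Its log2 fold change was 0.71 ± 0.16 (edgeR adjusted p = 0.0233), or 1.64-fold, and the call was lost without HKO replicate 1 or 4 (edgeR adjusted p = 0.0614 and 0.0601). Ghr, the growth hormone receptor, which controls Igf1 in liver, had a log2 change of 0.01, and Igfals, the third part of the circulating IGF complex, one of 0.16, and neither passed (edgeR adjusted p = 0.989 and 0.750). Igfbp5, the neighbour of Igfbp2 on chromosome 1 at a distance of 5457 bases, was at 1.32 to 5.38 CPM in HKO and 3.99 to 8.19 CPM in flox, with a log2 change of -0.98 (not called, edgeR adjusted p = 0.180). These 3 genes were chosen after their values were seen. Igf2, Igfbp6, Pappa, Pappa2, Stc1 and Stc2 did not pass the filter on low counts.

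Downstream of the substrates, 0 of 24 genes of insulin signalling from PI3-kinase to mTORC1 passed, with a median log2 fold change of 0.06. The smallest p belonged to Mlst8, a subunit of the mTOR complexes, with a log2 change of -0.57 ± 0.20 (edgeR adjusted p = 0.150). Pik3r1, the regulatory subunit of PI3-kinase that docks on the substrates, had one of -0.51 ± 0.18 (edgeR adjusted p = 0.151). Pik3r1 was at 56.0 to 106.5 CPM in HKO and 84.1 to 126.0 CPM in flox, so the groups overlapped.

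Of 17 tested genes that restrain insulin signalling or clear the hormone, 1 fell and 0 rose. Over all genes tested, 3.07% were called lower and 0.917% higher. The gene that fell was Ide, the protease that degrades insulin. Its level was 99.2, 83.3, 80.0, 138.6 and 97.3 CPM in HKO replicates 1 to 5, and 280.2, 186.7, 161.8, 169.1 and 159.8 CPM in flox replicates 1 to 5. All HKO values lay below all flox values, as for 3.46% of all genes tested, and flox replicate 1 was the highest. HKO over flox, the log2 fold change was -0.94 ± 0.20 (edgeR adjusted p = 0.0180), a level 0.520 of flox.

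Of 15 tested genes that insulin raises in liver, 7 fell and 0 rose, with a median log2 fold change of -0.89, where 3.07% of all genes tested were called lower. The number was 3 or 4 without HKO replicates 1, 3, 4 or 5 (4, 4, 4 and 3) or flox replicates 2, 4 or 5 (3, 4 and 4). Most members of the list make fatty acids, and the list was chosen with earlier results of these data known. Fasn, fatty acid synthase, was at 54.4 to 99.7 CPM in HKO and 164.4 to 319.5 CPM in flox, with a log2 change of -1.63 ± 0.21 (edgeR adjusted p = 0.00217). Thrsp, a lipogenic regulator, had a log2 change of -2.31 ± 0.35 and the carboxylase gene Acaca one of -1.03 ± 0.19 (edgeR adjusted p = 0.00602 and 0.0123), and the value of Acaca is uncertain in so far as reads could be shared with its near-identical copy Gm5182. Scd1, the stearoyl-CoA desaturase gene, had one of -2.68 ± 0.60, a call lost in 7 of 17 alternatives (edgeR adjusted p = 0.0242). These were the fits with robust dispersion, with the replicate block, and without HKO replicate 1, 2, 4 or 5 or flox replicate 2. The glycogen synthase gene Gys2, chosen after its values were seen, had a log2 change of 0.58 and did not pass (edgeR adjusted p = 0.163).

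Genes whose levels followed those of the set most closely were looked for among 7585 genes with a mean of at least 10 CPM, by the root mean square difference of centred log2 CPM over the 10 libraries. Igfbp2, whose own value from its mean was 0.70, was followed most closely by Dgkh, a diacylglycerol kinase (0.25), Smim36 (0.30) and Pdilt (0.31). Dgkh averaged 18.5 ± 6.05 CPM in HKO and 8.78 ± 1.13 CPM in flox (SD, n = 5), and all 3 genes were called higher in HKO (edgeR adjusted p = 0.0176, 0.0180 and 0.0185). These calls follow from the choice of genes, which were picked for matching Igfbp2 over the same 10 libraries, and are no separate result. The Smim36 call was lost with library totals alone (edgeR adjusted p = 0.0523), and the Pdilt call without HKO replicate 4 (edgeR adjusted p = 0.0519). Foxo1, with a value of 0.35, was followed by the repressor gene Klf12 (0.09), Mad2l2 (0.15) and Pid1 (0.15). Irs1, with 0.49, was followed by Ptpn23 (0.20), Rbm14 (0.22) and Map4k4 (0.22).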

How the data were processed

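RNA-seq of mouse liver was analysed in 10 libraries, 5 per genotype. Per the labels' protocols, total RNA went into a VAHTS Universal V6 library kit. The authors deposited raw counts of reads per gene, and the deposited table also gives a length in bases for each gene. The submitters' processing notes name mm10 and DESeq2. Aligner, counter, annotation and strand setting were not given in the sources used here. Gene coordinates are the table's own and of uncertain build, since 2.83% of the 52073 identifiers shared with GENCODE M21 (GRCm38) had the same start and end there, and 0 of the 10 genes did. Promoter coordinates are GRCm38.p6.

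Counts were tested with edgeR 4.0.16 (TMM, filterByExpr by group, two-sided quasi-likelihood F-test) in R 4.3.3, with Benjamini-Hochberg adjustment over 14068 genes and a threshold of 0.05. Standard errors were taken as the size of the log2 fold change divided by the root of F. Fold changes are HKO over flox, and log2 CPM used a prior count of 2. Intervals cover the spread between libraries. CPM per kilobase divides by the deposited length. No library pair within a group looked like the same library counted again (smallest chi-square per degree of freedom 24.6). On simulated data with 199 of 13812 genes changed, the gene test recovered 51.5% of 2-fold and 98% of 4-fold changes. Of its 158 calls there, 9 were false. Many 2-fold changes could thus be missed, but the rate for the 10 genes of the set was not computed. Of 30 named genes aligned with BLAST 2.17.0, 1 had a near-identical copy in another gene (Acaca), and no gene of the set did, at 95% identity over 50% of the transcript. Genes overlapping the 10 held under 1% of their counts.

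The genes and lists were chosen with earlier results of these data known. Named are the 10 genes, Acss2, up to 4 called genes per pathway list (or the 2 of smallest p), and the 3 closest genes of the 3 members with the smallest p. Alternatives were other scalings, DESeq2 1.42.0, other filters, robust dispersion, the replicate number as a block, and each library left out.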

Additional observations from a re-analysis of the deposited data

Results flagged for a closer look

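Among the 10 genes and the other named genes, 60 groups of 5 libraries were checked for a library far from the rest (Dixon's ratio above 0.71), of which chance flags about 1 in 20, or 3. There were 5, 3 of them among the 20 groups of the 10 genes. Genes chosen after their values were seen, Pdk4 and Ppp1r3g among them, were not part of this check. Irs2 stood at 74.9 CPM in flox replicate 5, against 10.5 to 18.7 CPM in the other flox libraries. Igfbp1 stood at 506.9 CPM in the same library, against 19.9 to 89.6 CPM in the others. Foxo1 was at 57.9 CPM in HKO replicate 5, against 35.4 to 41.2 CPM in the other HKO libraries. Ide was at 280.2 CPM in flox replicate 1, against 159.8 to 186.7 CPM in the other flox libraries. Scd1 was at 3314 CPM in HKO replicate 3, against 440.9 to 1212 CPM in the other HKO libraries.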

How the results depend on the processing

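Igfbp2 was the called gene of the 10, and no other was called, in all 17 alternatives (log2 fold change 1.12 to 1.40, adjusted p 7.68e-08 with DESeq2 to 0.0220 with the replicate block). Foxo1 stayed lower and not called (-0.33 to -0.59, adjusted p 0.0825 to 0.358), Irs2 higher and not called (0.31 to 1.45, adjusted p 0.0586 to 0.866). Values that were not called changed sign for Igfbp1 (0.79 without flox replicate 5 and -0.77 to -0.24 without any other library, 0.11 with the replicate block), Akt2 (-0.093 to 0.035 with 1 library left out) and Igfbp3 (-0.17 to 0.10). The cause was not tested. Library totals alone moved the median log2 fold change of all genes to -0.10, and Insr (0.04) and Igfbp4 (0.02) then lay 0.14 and 0.12 above it.

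The number of genes called, 561, was 1021 with DESeq2 and 289 to 673 with 1 library left out, the lowest without HKO replicates 1, 4 or 5 (335, 289 and 354) or flox replicate 5 (361). DESeq2 called 1 gene of insulin signalling, Rps6, and 2 that restrain it, Ide and Socs2, as did edgeR with no filter on low counts (2), with the replicate block (2) and without HKO replicate 2, while 1 was called in the other fits. With 1 library left out, the IGF list had 0 to 1 called genes, the insulin-induced list 3 to 8, the restraining list 1 to 2, and the FOXO1 list 0 throughout. Of 340 comparisons of other named genes with an alternative, 325 kept their side of the threshold, 11 lost it and 0 changed sign, while 4 passed it newly, all of Acss2 (library totals alone, DESeq2, no filter, and without flox replicate 3, adjusted p 0.0346 to 0.0460).

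Over all genes tested, same-numbered libraries of the groups did not vary together. Their deviations correlated at -0.12 to 0.24, 1 of 5 pairs was over 0.1, and 1 of 5 HKO libraries correlated best with its own number. For Irs2, Igfbp1 and Pdk4, however, replicate 5 was the highest library in both groups, while for Igfbp2 it was highest in flox and lowest in HKO. With the replicate block 448 genes were called. Irs2 then had a log2 fold change of 0.79 ± 0.30 (unadjusted p = 0.0228, edgeR adjusted p = 0.211) and Igfbp1 one of 0.11 ± 0.42 (edgeR adjusted p = 0.938). Whether the numbers share a batch was not tested. Of the 10 genes, Igf1r had the fewest counts, 27 to 99 a library.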

Other observations

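Ppp1r3g, which targets a phosphatase to glycogen, was among the listed genes that insulin raises in liver and was not called (edgeR adjusted p = 0.442). It was at 5.96, 0.819, 1.19, 2.51 and 0.772 CPM in HKO replicates 1 to 5, and at 0.245, 0.670, 0.601, 0.0573 and 47.2 CPM in flox replicates 1 to 5. Its level in flox replicate 5 was the highest of all libraries. The share of all genes tested that were highest in this library was not counted, so no pattern is read from it. Socs2, a feedback inhibitor that growth hormone raises, was at 32.8, 11.1, 58.5, 66.7 and 32.4 CPM in HKO replicates 1 to 5, and at 11.3, 4.87, 17.6, 20.2 and 16.02 CPM in flox replicates 1 to 5, a log2 difference of 1.52 (edgeR adjusted p = 0.0660). Both genes were chosen after their values were seen.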
